A study of Mus musculus with 7 samples.

Results

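The 10 circadian clock genes described here were followed in mouse liver: *Arntl* (also named *Bmal1*), *Clock*, *Npas2*, *Per1*, *Per2*, *Per3*, *Cry1*, *Nr1d1*, *Dbp* and *Ciart*. They were chosen by name, as the rows of the deposited table whose Ensembl identifier carries one of these symbols in GENCODE vM21, and all 10 were found, once each, among 14851 identifiers. RNA had been sequenced from the livers of 4 *Albumin-Cre; p53* FL/FL mice (FL) and 3 *Albumin-Cre; p53* WT/WT mice (WT), all C57BL/6J males of about 70 days. Both genotypes carry Cre recombinase under the promoter of *Albumin*, a gene of hepatocytes, and the paper describes the loss of floxed *Trp53* in FL mice as specific to the liver. Which liver cells other than hepatocytes also lost it cannot be told from whole liver RNA. Every mouse had received the hepatotoxin CCl4 in corn oil by 1 intraperitoneal injection (1 mL/kg of a 20% solution) in the morning, and was sampled 8 h later. There was no untreated liver and no second time point, and the hour of injection of each mouse is not given in the sources used here. The comparison asked whether livers without hepatocyte p53 stood at a different level, or a different phase, of the clock from WT livers.

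The molecular clock is a delayed negative feedback loop. BMAL1 pairs with CLOCK, or with its paralog NPAS2, and the pair binds E-boxes to switch on *Per1*, *Per2*, *Per3*, *Cry1*, *Nr1d1*, *Dbp* and *Ciart*; the PER and CRY proteins and CHRONO, the product of *Ciart*, then switch the pair off. REV-ERBα, encoded by *Nr1d1*, is a nuclear receptor that represses *Arntl*, *Npas2*, *Nfil3* and *Cry1* through response elements known as ROREs, and the PAR bZIP factor DBP adds a further drive through D-boxes. In mice kept in light and dark, hepatic *Nr1d1* and *Dbp* peak during the light phase and the *Per* genes around dusk, whereas *Arntl* and *Npas2* peak towards the end of the dark phase, so the ratio of the first set to the second moves with the time of day. p53 has itself been linked to the loop, as a factor that binds the *Per2* promoter.

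Promoter stretches are shown for the members in which a searched element was found, because such elements define the arms of the loop. RefSeq promoters (GRCm38.p6, from 250 bases before to 50 bases after a start) were found for 9 of the 10 genes, in 13 promoters; *Per2* had no entry. The E-box was searched as CACGTG, the D-box as TTATGTAA or TTACGTAA, the RORE as TAGGTCA or TGGGTCA and the cyclic AMP response element as TGACGTCA, each on both strands, and the capitals below mark these letters. Each sequence is written 5′ to 3′ on the strand of its gene. No searched element was found in the promoters of *Clock*, *Npas2*, *Nr1d1* and *Dbp*, and sequence further from the start was not searched. *Ciart* holds 3 E-boxes (chr3:95882253-95882358, minus strand, -130 to -25 from the start), *Cry1* holds 1 (chr10:85185089-85185134, minus strand, -80 to -35) and *Per1* holds 1 (chr11:69098763-69098808, plus strand, -186 to -141). *Per3* holds 2 D-boxes (chr4:151044802-151044884, minus strand, -219 to -137), and *Arntl* holds a RORE within its first exon (chr7:113207530-113207558, plus strand). Other promoters carry them too: the E-box is in 7.15% of 32851 promoters of this length, the D-box in 1.06%, the RORE in 6.45% and the cyclic AMP response element in 1.79%, the last in 0 of the 13.
Ciart: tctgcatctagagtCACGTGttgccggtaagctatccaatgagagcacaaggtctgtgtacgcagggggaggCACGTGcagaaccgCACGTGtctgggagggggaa
Cry1: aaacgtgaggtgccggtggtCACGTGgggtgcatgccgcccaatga
Per1: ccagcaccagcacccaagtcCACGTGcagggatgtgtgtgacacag
Per3: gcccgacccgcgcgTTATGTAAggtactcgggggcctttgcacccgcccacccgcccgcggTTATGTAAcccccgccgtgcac
Arntl: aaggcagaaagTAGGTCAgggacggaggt

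The deposited values are normalised counts, that is, reads per gene divided by a size factor of each library and rounded to whole numbers by the authors. The spacing of low values put the depth at 11900000 to 19500000 reads on genes per library, an estimate whose fit was least clear in FL replicate 1, and intervals drawn from it cover counting error only. *Trp53*, the targeted gene, ranged from 110 to 217 normalised counts with the floxed allele and from 688 to 876 without it, as the labels state the genotypes. WT replicate 2 and FL replicate 3 stood apart from the rest, at 82.0 and 29.2 on a first principal component that held 66.7% of the variance, with the other 5 livers between -25.6 and -19.1. *Alb*, the main secreted protein of hepatocytes, was between 956556 and 1511638 in every liver. In WT replicate 2, 6 of 6 macrophage markers, 5 of 5 stellate cell markers and 5 of 5 proliferation markers were at their highest, and their summed levels were 11743, 6515 and 941, against 4412 to 7227, 2311 to 3040 and 72 to 242 in the other 6 livers. In whole liver RNA a change in the number of cells of a type and a change in RNA per cell cannot be told apart, and the part of these cells in the clock values was not tested. FL replicate 3 held the next highest sums of macrophage, stellate and proliferation markers (7227, 3040 and 242), above the 4412 to 5591, 2311 to 2581 and 72 to 105 of the remaining 5 livers.

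No clock gene passed the threshold between the genotypes. All 10 had a mean of at least 10 normalised counts and were tested with limma on log2(normalised count + 1) across 12545 genes; 0 of the 10 had an adjusted p-value under 0.05, as against 2 of all genes tested (0.0159%), and 1 of the 10, *Cry1*, had an unadjusted p-value under 0.05, as against 3.2% of all genes (1.59% higher and 1.6% lower in FL livers). The limma adjusted p-value was 0.999 for each member. On this scale, which understates the change of low genes, 6 members were higher and 4 lower in FL livers, with a median log2 fold change of 0.15, beside 0.00695 over all genes tested. The intervals were wide for most members, so that a failure to pass does not show equal levels.

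**Figure D1:**
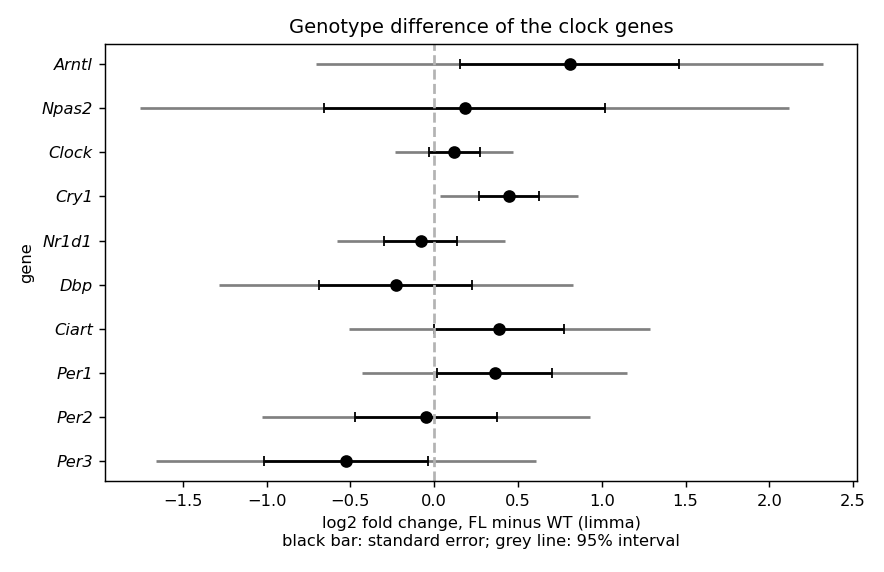
Log2 fold change of each clock gene between genotypes (x axis, positive values are higher in FL livers; y axis, gene), with the standard error as a black bar and the 95% interval as a grey line, from limma on 4 FL and 3 WT livers. The interval of *Cry1*, 0.035 to 0.86, is the only 1 of the 10 that lies above 0.

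*Cry1*, the cryptochrome that closes the feedback loop by repressing BMAL1 and CLOCK, was the member whose genotypes did not overlap. FL replicates 1 to 4 stood at 305, 305, 302 and 292 normalised counts, and WT replicates 1 to 3 at 249, 162 and 266. The 4 FL livers lay within 1.04-fold of each other and all were above the highest WT liver; among all genes tested, 2.77% had every FL liver above every WT liver. The FL mean was 1.33-fold the WT mean (301 ± 6.16, SD, n = 4, against 226 ± 55.8, SD, n = 3), a log2 fold change of 0.45 with a standard error of 0.18 and a limma adjusted p-value of 0.999. Permuting the genotypes over all 35 splits (exact, two-sided) gave p = 0.0286, the smallest that these groups allow. The size rested largely on WT replicate 2: without it the log2 fold change was 0.22. The 5 hepatocyte markers summed to 1351036 to 1841683 normalised counts in FL and 1152515 to 1416575 in WT livers, none was at 0, and 2 of the 5 also had each FL liver above each WT liver, *Ttr* (68660 to 85481 against 51671 to 67365) and *Apoa1* (144629 to 208540 against 114388 to 121251). Of the 4 cholangiocyte markers *Sox9* was higher (297 to 763 against 204 to 261) and *Krt19* (6 to 21 against 26 to 128) and *Krt7* (2 to 18 against 28 to 33) lower in each FL liver than in any WT liver. The cholangiocyte markers summed to 335 to 881 in FL and 386 to 555 in WT livers. The part of these markers in the *Cry1* difference was not tested. *Cry2*, the paralog, overlapped between genotypes (721 to 1037 in FL, 738 to 821 in WT), and its log2 fold change was 0.15, with 0.14 as standard error.

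Of the activators of the loop, *Arntl* and *Npas2* varied most between livers and *Clock* hardly at all. *Arntl*, the obligate partner of the pair, was at 108, 51, 149 and 230 normalised counts in the FL series of replicates 1 to 4, and at 57, 171 and 30 in the WT series of 1 to 3. FL replicate 4 was 7.67-fold above WT replicate 3, and the genotypes overlapped over most of their range. These differences between livers were larger than counting error, since the 95% Poisson interval was 148 to 198 for WT replicate 2 and 20.4 to 42.0 for WT replicate 3. The genotype difference of *Arntl* was the largest of the 10 in log2 terms, 0.81, but its standard error was 0.66 (95% interval -0.71 to 2.32), and the exact two-sided permutation test gave p = 0.343. It was 1.48 without WT replicate 2 and 0.25 without WT replicate 3.

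*Npas2*, which can stand in for CLOCK, was the least abundant member. Its normalised counts were 6, 10, 10 and 45 with FL/FL and 3, 27 and 16 with WT/WT alleles. FL replicate 4 was the highest of all livers and was 5.19-fold the mean of the other FL livers; its 95% Poisson interval, 32.7 to 61.4, did not meet that of any other FL liver, the highest of which ended at 20.0. WT replicate 2 came next, with an interval of 17.8 to 38.2. The log2 fold change was 0.18 with a standard error of 0.84, and it became -0.39 without FL replicate 4, -0.64 without WT replicate 1 and 0.77 without WT replicate 2. *Clock* was steady, at 583, 393, 432 and 491 in FL and 462, 439 and 398 in WT livers, so that the highest liver was only 1.48-fold the lowest. Its log2 fold change was 0.12 (standard error 0.15, 95% interval -0.23 to 0.47).

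Among the repressors, *Nr1d1* was the most abundant of the 10 members and its livers were close together. Its normalised counts ran 2313, 1990, 1580 and 1451 over FL replicates 1 to 4, then 2318, 1437 and 2082 over WT replicates 1 to 3, a 1.61-fold range. The genotypes overlapped almost completely, the log2 fold change being -0.08 (standard error 0.22, 95% interval -0.58 to 0.42). It was -0.29 without WT replicate 2, -0.02 without FL replicate 3 and -0.22 without both. The 3 livers with the lowest *Nr1d1*, WT replicate 2 and FL replicates 4 and 3, were the 3 with the highest *Arntl*. The same 3 livers were also lowest in *Nr1d2*, the paralog that encodes REV-ERBβ (693, 646 and 806, against 841 to 1020 in the other 4), and highest in *Nfil3*, a repressor of D-box genes (1243, 1252 and 1104, against 492 to 1023). Among the 18 further clock genes described below, *Fbxl21* and *Btrc*, of the ubiquitin ligases that act on CRY and PER proteins, were likewise highest, and *Bhlhe41*, *Csnk1d* and *Wee1* lowest, in these 3 livers. These orders, noted after the values were seen, are not rare in the table, since 13.7% of all genes tested had their 3 lowest values and 10.1% their 3 highest in these livers. With quantile normalisation and with library factors from a trimmed mean of M-values, these 3 livers were still the lowest in *Nr1d1* and the highest in *Arntl*. Their order among themselves in *Nr1d1* changed with quantile normalisation. *Npas2* followed the pattern of *Arntl* in part, being low in FL replicate 3.

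**Figure D2:**
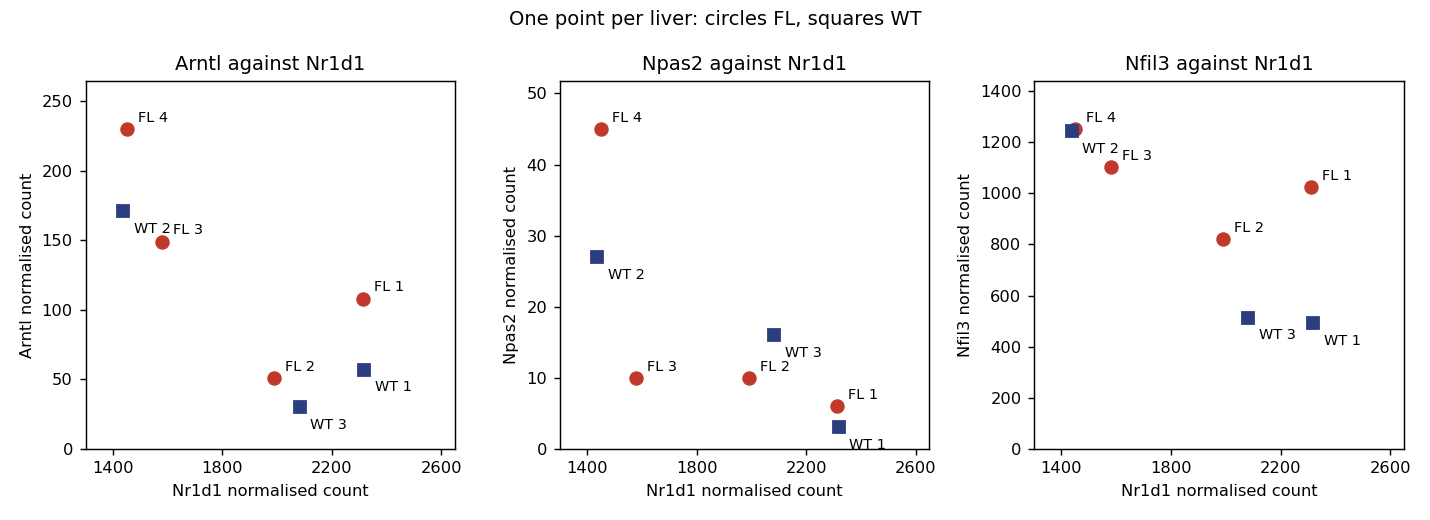
Normalised counts of *Arntl*, *Npas2* and *Nfil3* (y axes, linear) against *Nr1d1* (x axis, linear, starting above 0), with 1 point per liver, circles for FL and squares for WT. WT replicate 2 and FL replicates 4 and 3, the livers with *Nr1d1* from 1437 to 1580, have *Arntl* from 149 to 230, above the 30 to 108 of the other 4 livers.

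*Ciart*, which encodes the BMAL1 repressor CHRONO, was measured at 120, 181, 264 and 226 normalised counts in FL and 152, 83 and 240 in WT livers. FL replicate 3 was highest, WT replicate 2 was lowest, and the genotypes overlapped (log2 fold change 0.39, standard error 0.39, exact permutation p = 0.429). The log2 fold change was -0.0094 without WT replicate 2, 0.23 without FL replicate 3 and -0.17 without both. The values of *Ciart* are uncertain, because 18.2% of the 36-base stretches of its transcripts also occur in *Gm9176* and its reads could have been divided or left uncounted. Of *Nr1d1*, 8.55% of the exon bases lie opposite *Thra*, and although the library kit keeps strand, the sources used here do not say whether counting used it.

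The 3 *Period* genes, which encode the repressors that accumulate around dusk, did not move as a group. For *Per1*, the FL livers gave 1150, 1424, 2152 and 1264 normalised counts and the WT livers 1242, 662 and 1758. FL replicate 3 was highest and WT replicate 2 lowest, 3.25-fold apart, and the other 5 livers of both genotypes were interspersed. The log2 fold change was 0.36 (standard error 0.34) and became -0.024 without WT replicate 2, 0.17 without FL replicate 3 and -0.21 without both. *Per1* lies 470.4 kilobases from *Trp53* on chromosome 11 (69095217 to 69109960 of GRCm38). For this gene, sequence carried along with the floxed allele and the loss of p53 itself therefore cannot be told apart. *Nr1d1* is on the same chromosome, 29176.1 kilobases from *Trp53*, and how far such sequence extends is not given in the sources used here.

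*Per2*, the *Period* gene to which p53 binding has been ascribed, had 441, 397, 730 and 209 in FL and 572, 265 and 484 in WT livers. Both the highest and the lowest liver were FL, and the group means were nearly equal (444 ± 215, SD, n = 4, and 440.3 ± 158, SD, n = 3). The log2 fold change was -0.05 with a standard error of 0.42 and a 95% interval of -1.03 to 0.93, so that a difference of almost 2-fold either way lies within it. Its sign depended on single livers: it was 0.27 without FL replicate 4, 0.17 without WT replicate 1 and 0.054 without WT replicate 3, but -0.38 without WT replicate 2 and -0.33 without FL replicate 3. Without both livers that stood apart it was -0.66, with a limma adjusted p-value of 0.47 (0.47 to 1 over the alternatives). The unadjusted limma p-value was 0.0357 there, a setting in which 1200 of 12325 genes had one under 0.05. *Per3*, whose promoter carries the D-boxes shown above, had 148, 263, 377 and 82 in FL and 235, 378 and 219 in WT livers. FL replicate 4 was lowest and FL replicate 3 was level with WT replicate 2 at the top, a 4.61-fold range. The log2 fold change was -0.53 (standard error 0.49, exact permutation p = 0.486). It was -0.13 without FL replicate 4, -0.28 without WT replicate 2, -0.86 without FL replicate 3 and -0.62 without both of the latter.

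*Dbp*, the PAR bZIP activator that carries the clock to metabolic genes, had 415, 544, 1244 and 325 normalised counts in FL and 563, 993 and 479 in WT livers. FL replicate 3 and WT replicate 2 were at the top and FL replicate 4 at the bottom, so that 1 FL liver was 3.83-fold another. The genotypes overlapped, the log2 fold change being -0.23 (standard error 0.46, 95% interval -1.29 to 0.83). It was 0.082 without WT replicate 2, 0.023 without FL replicate 4, -0.62 without FL replicate 3 and -0.31 without both WT replicate 2 and FL replicate 3. *Dbp* lies opposite *Sphk2* over 18.0% of its exon bases, and *Sphk2* was lowest in WT replicate 2 at 1353 and between 1834 and 2455 elsewhere.

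**Figure D3:**
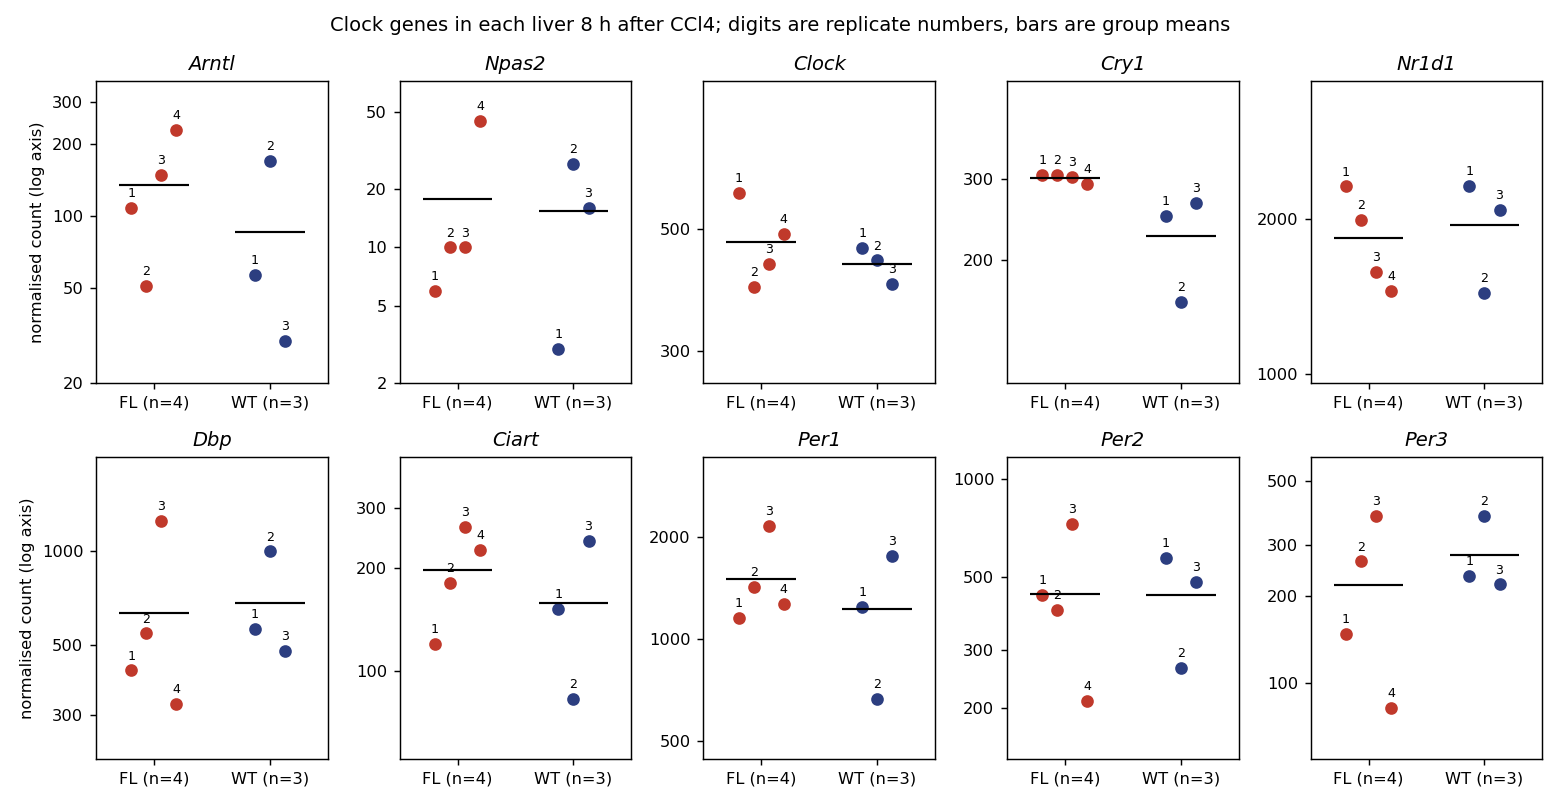
Normalised counts of the 10 clock genes (y axes, log scale) in each FL and WT liver (points, labelled with the replicate number), with group means as bars. *Cry1* is the panel in which no FL point reaches down to a WT point, and FL replicate 4 is the highest point for *Arntl* and *Npas2* and the lowest for *Per2*, *Per3* and *Dbp*.

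Per kilobase of exon, *Nr1d1* stood above the other members in these livers, at 612 ± 126 normalised counts per kilobase (SD, n = 7), and its lowest liver (467) exceeded the highest value of any other member (416, *Dbp*). *Per1* (245 ± 84.0) and *Dbp* (218 ± 112) followed and their ranges overlapped. *Cry1* (80.5 ± 15.5), *Ciart* (80.0 ± 29.4) and *Per2* (75.6 ± 30.3) did not differ beyond their spread. *Clock* (33.3 ± 4.76) and *Per3* (25.3 ± 11.4) overlapped, *Arntl* was at 15.1 ± 9.74, and *Npas2*, at 3.49 ± 3.07, came last. These levels use the length of all annotated exons of a gene, combined, not that of the transcripts present.

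To describe phase within a liver, the mean log2(normalised count + 1) of *Nr1d1*, *Dbp*, *Ciart* and *Per3*, which peak by day or at dusk, was set against that of *Arntl*, *Npas2*, *Clock* and *Cry1*, which peak by night. The scaling of a library nearly cancels in such a difference, apart from the effect of the 1 added to each count. This day-minus-night index was 1.75, 2.39, 2.46 and 0.64 for the FL livers in replicate order, and 2.69, 1.76 and 2.47 for the WT livers. FL replicate 4 was lowest by more than 1 log2 unit, and the other 6 livers lay between 1.75 and 2.69 irrespective of genotype. The group means were 1.81 ± 0.84 (SD, n = 4) and 2.31 ± 0.49 (SD, n = 3), a difference of -0.50 that was smaller than the pooled SD of 0.72; no test was made of this score, since it is built from the chosen genes. Without FL replicate 4 the difference was -0.11, and without both WT replicate 2 and FL replicate 3 it was -0.99. With the narrower pairs of *Nr1d1* and *Dbp* against *Arntl* and *Npas2*, FL replicate 4 was again lowest, at 2.74, WT replicate 2 came next at 4.11, and the other livers lay between 5.11 and 6.23. The log2 ratio of *Nr1d1* to *Arntl* was lowest in FL replicate 4 (2.65), WT replicate 2 (3.06) and then FL replicate 3, and from 4.41 to 6.07 in the other 4 livers.

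FL replicate 4 thus differed from the other livers in the clock while sitting with 4 of them, at -20.7, on the first principal component. Of the 10 members, 4 were at least 2-fold from the median liver in FL replicate 4 (*Arntl* and *Npas2* above, *Per2* and *Per3* below), where 1.5% of all genes tested were. The other livers had 2 such members (WT replicate 2, 16.2% of all genes), 1 (FL replicate 2, 1.39%, FL replicate 3, 4.73%, WT replicate 1, 1.01%, and WT replicate 3, 1.24%) or 0 (FL replicate 1, 1.25%). FL replicate 4 was singled out after these values had been seen. Its *Per3* was 3.20-fold and its *Per2* 2.50-fold below the mean of the other FL livers, and its *Arntl* was 2.24-fold above it. Against FL replicates 1 and 2 alone these folds were 2.51, 2.01 and 2.89. It had the lowest of the 7 values for 3 members and for 5 of 18 further clock genes (*Nr1d2*, *Tef*, *Usp2*, *Wee1* and *Nampt*), against 12.9% of all genes, and the highest for 2 members and 2 further genes (*Rora* and *Nfil3*), against 13.5%. *Clock*, *Cry1* and *Per1* were within 1.25-fold of the mean of the other FL livers in the same sample, and *Ciart* was 0.61 above FL replicates 1 and 2 on the log2 scale.

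FL replicate 3 had another pattern. It held the highest value of 4 of the 10 members, *Per1*, *Per2*, *Dbp* and *Ciart*, against 11.1% of all genes tested, and also that of *Tef*, *Hlf*, *Usp2*, *Noct* and *Nampt*. *Dbp* was 2.91-fold, *Per3* 2.29-fold and *Per2* 2.09-fold the mean of the other FL livers, whereas *Arntl* was not low in it. The proliferation markers (5 of 5), macrophage markers (5 of 6) and some stellate cell markers (3 of 5) were also at their highest among FL livers in FL replicate 3. The part of these markers in its clock values was not tested. WT replicate 2 combined high *Arntl* (3.93-fold the mean of the other WT livers), high *Npas2* (2.84-fold) and high *Dbp* (1.91-fold) with the lowest *Per1*, *Cry1*, *Nr1d1* and *Ciart* of all livers, but 33.9% of all genes tested had their lowest and 31.5% their highest value in this liver, *Per3* among the latter. Genes that peak at opposite times of day were therefore raised together in WT replicate 2. On the index of 8 genes it stood at 1.76, level with FL replicate 1, whereas on the narrower index and on the ratio of *Nr1d1* to *Arntl* it lay next to FL replicate 4.

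**Figure D4:**
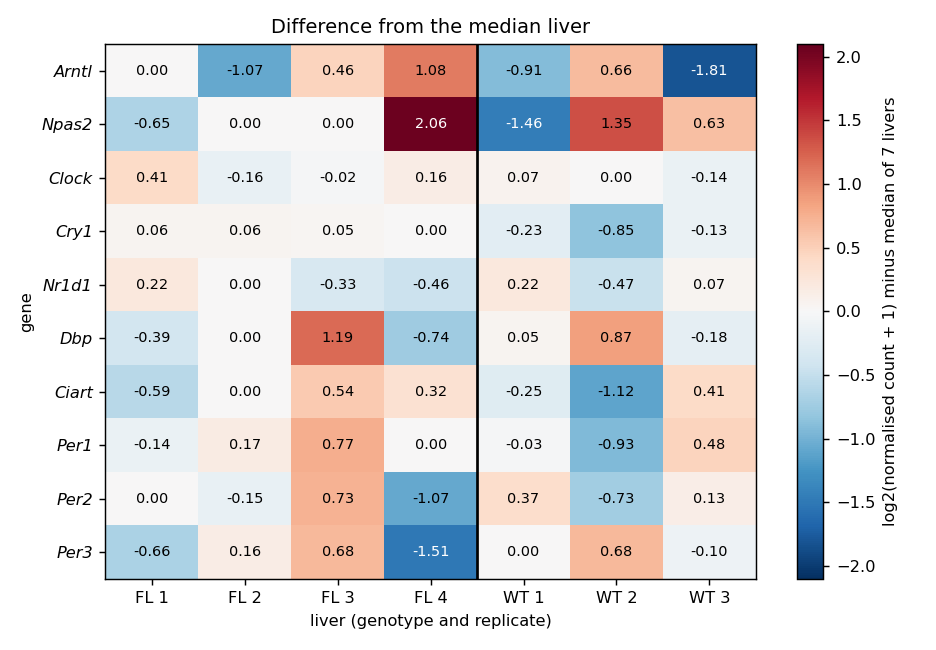
Difference of each clock gene (rows) from its median over the 7 livers, in log2(normalised count + 1), for each liver (columns, FL to the left of the line and WT to the right); red is above and blue below the median. In FL replicate 4, *Npas2* is 2.06 and *Arntl* 1.08 above while *Per3* is well below the median, and the row of *Clock* is pale throughout.

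The spread of most members between livers of the same genotype was larger than that of the typical gene. The within-genotype SD of the log2 level had a median of 0.65 over the 10 members and exceeded the median of all genes tested (0.26) in 8 of them, *Clock* (0.20) and *Cry1* (0.25) being below it. *Npas2* (1.30, percentile 98.5 of all genes tested), *Arntl* (1.06, percentile 97.1) and *Per3* (0.79, percentile 93.3) varied most, with the low counts of *Npas2* adding to its value. Without WT replicate 2 and FL replicate 3 the median over the members was 0.39 and that over all genes 0.14, and 9 members lay above the latter. In that setting *Arntl* stood at percentile 99.4, whereas *Cry1* had an SD of 0.05, below the median of all genes. With FL replicate 4 left out as well, 9 members were still above the median of all genes.

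**Figure D5:**
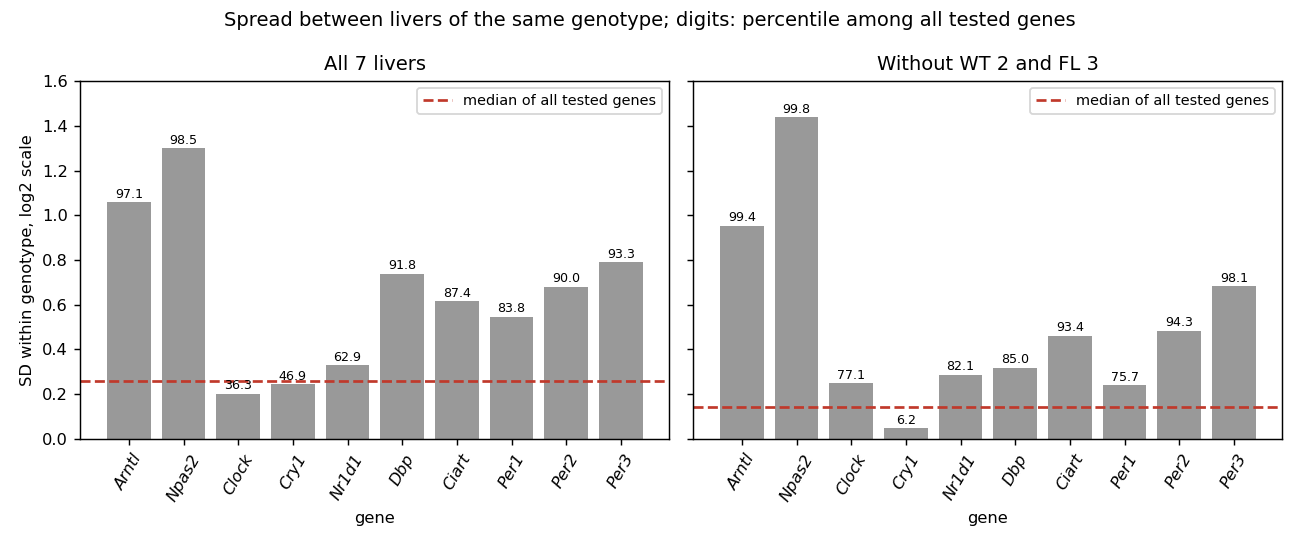
Standard deviation of log2(normalised count + 1) between livers of the same genotype (y axis, starting at 0) for each clock gene (x axis), in all 7 livers and without WT replicate 2 and FL replicate 3; the dashed line is the median of all genes tested and the digits are percentiles among them. *Arntl* and *Npas2* are the highest bars in both panels, and *Cry1* is the lowest bar in the right panel.

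The rest of the clock was taken from a list of 18 genes (11 further core genes, 3 PAR bZIP factors or their repressor, and 4 outputs), all of which were tested. Of these, 0 rose and 0 fell in FL livers by limma adjusted p-value, 0 had an unadjusted p-value under 0.05, and in none did the genotypes separate; 10 had a positive and 8 a negative log2 fold change, with a median of 0.0117. *Bhlhe40*, which encodes the E-box repressor DEC1, spanned 2457 to 3562 normalised counts in FL and 1711 to 2868 in WT livers, and its log2 fold change was 0.41 with 0.20 as standard error. The kinase gene *Csnk1d*, whose product marks PER proteins for turnover, was the steadiest of the core genes in fold terms, from 1913 to 2320. *Tef* and *Hlf*, the PAR bZIP paralogs of *Dbp*, had log2 fold changes of -0.08 and 0.18 (standard errors 0.20 and 0.11). Of the outputs, the ubiquitin protease gene *Usp2* ran from 218 in FL replicate 4 to 705 in FL replicate 3, and *Dbp* had its extremes in the same livers. In WT replicate 2 they differed, with *Usp2* at 315, below its median of 358, and *Dbp* at 993, above its median of 544. The deadenylase gene *Noct* (nocturnin) ran from 440 to 1132.

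*Nfil3*, which competes with DBP for D-boxes, had 1023, 820, 1104 and 1252 normalised counts in FL and 492, 1243 and 514 in WT livers. WT replicate 2 was the only WT liver within the FL range. FL livers were higher by 0.61 on the log2 scale, with a standard error of 0.32 and 0.999 as the limma adjusted p-value. It was 1.04 without WT replicate 2 (adjusted p-value 0.437) and 1.01 without that liver and FL replicate 3 (adjusted p-value 0.0891), the adjusted p-values ranging from 0.0891 to 1 over the alternatives. *Nfil3* was singled out after its values had been seen.

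DBP and its paralogs are known to act on detoxification genes in liver, among them *Cyp2a4* and *Cyp2a5*, *Alas1*, *Por*, *Nr1i3* and *Cyp2b10*. Of these 6, 0 passed the limma adjusted threshold, 2 had an unadjusted p-value under 0.05, and the same 2, *Cyp2a5* and *Cyp2b10*, had every FL liver below every WT liver, as did 1.98% of all genes tested. The paper's own DESeq2 test between these genotypes did call *Cyp2a5*, and its staining at 8 h found less CYP2A5 protein in FL livers. *Cyp2a4* was highest in WT replicate 2 (1468) and FL replicate 3 (337), and between 8 and 34 elsewhere. These 2 livers had the most *Dbp*, but they also stood apart on the first principal component. In WT replicate 2, 31.5% of all genes tested had their highest value. *Cyp2b10* was high in WT replicate 2 alone (3040, against 83 to 348). *Cyp2a5* was highest in WT replicate 3 at 9903, where *Dbp* was 479, and lowest in FL replicate 4 at 887, where *Dbp* was lowest as well. *Cyp2a4* and *Cyp2a5* are close paralogs whose reads can be confused. *Alas1*, which encodes the first enzyme of heme synthesis, was highest in FL replicate 4 (15129, against 8263 to 12271), the liver with the least *Dbp*. The part of DBP in the levels of these 6 genes was not tested.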

How the data were processed

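Liver RNA from 4 FL and 3 WT mice was analysed. Per the methods, the authors mapped read pairs with TopHat2 and Bowtie2 to a mouse genome that they name GRCh38, release 75, and used HTSeq for counting (the submitters' processing notes also list featureCounts). DESeq2 size factors and rounding then gave the deposited normalised counts, treated here as a score and not as counts. Identical repeats of 120 identifiers were dropped.

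Genotypes were compared on log2(normalised count + 1) by limma (3.58.1, R 4.3.3, with a trend), for the 12545 genes whose mean reached 10, and p-values were adjusted by Benjamini and Hochberg over all of these at a threshold of 0.05. Exact permutation tests used all 35 splits. The worth of 1 read (0.811 to 1.38 normalised counts) was fitted to the spacing of low values. Coordinates came from GENCODE vM21 (GRCm38).

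The members and lists were chosen with earlier results of these data known. Named genes were the members, the listed genes and *Trp53*; *Thra*, *Sphk2* and *Gm9176* were named for shared sequence. Alternatives were other pseudocounts, filters, scalings and limma settings, blocking on the replicate number, and omission of livers. The scaled orders, the SDs without 2 or 3 livers and the glucocorticoid list without 1 or 2 livers were added once the values were known. The values of 1 listed gene are not reported here.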

Additional observations from a re-analysis of the deposited data

Results flagged for a closer look

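Dixon's 95% limit for 1 liver set apart was applied to the 4 FL livers in 41 results, namely the 10 members, 30 listed genes and the day-minus-night index. It was passed by 3, where chance gives about 2.0. *Npas2* reached 45 normalised counts in FL replicate 4, the remaining FL livers lying between 6 and 10. *Noct* reached 1132 in FL replicate 3, with 440 to 550 in the rest. *Cyp2a4* reached 337 in FL replicate 3 too, with 8 to 24 in the rest.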

How the results depend on the processing

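Under all 18 alternatives, 0 clock members passed the limma adjusted threshold. Of the other listed genes, markers included, 1 passed, *Sox9* without both WT replicate 2 and FL replicate 3, and 0 under the rest. *Arntl*, *Clock*, *Cry1* and *Per3* kept their direction in 18 of 18 (with each liver left out, 0.25 to 1.48, 0.015 to 0.20, 0.22 to 0.58 and -0.86 to -0.13), and the day-minus-night index in 14 of 14, between -0.99 and -0.11. For *Cry1*, leaving out a liver could not change the direction, because its genotypes do not overlap. Over all genes, 2 passed; 0 passed with a pseudocount of 5, a minimum of 10 in each liver, a mean of 50 or more, no trend or the replicate block, 1 with quantile normalisation, 6 without both WT replicate 2 and FL replicate 3, and 0 to 5 with each liver left out.

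The sign changed in members with small differences. Blocking on the replicate number leaves FL replicate 4 unpaired, and gave log2 fold changes of -0.39 for *Npas2*, 0.27 for *Per2*, 0.023 for *Nr1d1* and 0.023 for *Dbp*, with an unadjusted p-value under 0.05 in 110 genes; the numbers mark different mice, and same-numbered livers had correlations of their deviations from -0.66 to 0.44. Without both WT replicate 2 and FL replicate 3 they were -0.21 for *Per1* and -0.17 for *Ciart*. With each liver left out they ran from -0.64 to 0.77 for *Npas2*, -0.38 to 0.27 for *Per2*, -0.29 to 0.059 for *Nr1d1*, -0.62 to 0.082 for *Dbp*, -0.024 to 0.68 for *Per1* and -0.0094 to 0.75 for *Ciart*. The cause was not tested.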

Other observations

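Glucocorticoids, which rise before the active phase and under stress, also set hepatic *Per1* and *Per2*. Of 6 glucocorticoid-responsive genes, 0 passed the limma adjusted threshold and 0 had an unadjusted p-value under 0.05, but all 6 had a positive log2 fold change in FL livers, with a median of 0.495 beside 0.00695 over all genes tested. Without WT replicate 2, which was lowest for *Fkbp5*, *Zbtb16* and *Dusp1*, 5 were positive with a median of 0.33, and *Zbtb16* was at -0.039. Without FL replicate 3, 4 were positive with a median of 0.48, and without both livers 6 were, with a median of 0.32. *Fkbp5*, a chaperone gene, had 3022, 4085, 2538 and 4248 normalised counts in FL and 2472, 1622 and 2963 in WT livers (log2 fold change 0.57, standard error 0.25). *Tsc22d3*, which encodes GILZ, had 622, 482, 967 and 818 in FL and 439, 480 and 583 in WT livers (log2 fold change 0.49, standard error 0.24). *Sgk1* was highest in WT replicate 2 at 1057 and between 281 and 679 elsewhere, with a log2 fold change of 0.06 although its FL mean (504) was below its WT mean (551).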
